A study of Mus musculus with 2 samples.

Results

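The voltage-gated sodium and calcium channel genes of the injured mouse spinal cord were taken as every gene symbol of the Scn families with a numbered a or b suffix and of the Cacna1, Cacna2d, Cacnb and Cacng families. The rule used names only, with no expression value, and gave 40 genes of 32285 features. It was set with earlier results of these data known. They encode 10 sodium channel α subunits, 4 sodium channel β subunits, 10 calcium channel α1 subunits, 4 α2δ subunits, 4 calcium channel β subunits and 8 γ subunits.

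Nuclei were sequenced from spinal cords 7 days after a contusion at T10, made by dropping a 5 g rod of 1 mm diameter from 6 cm onto wild-type C57BL/6 mice aged 6 to 8 weeks. The AEVs group received athlete-derived extracellular vesicles, with 100 µg of vesicle protein in 100 µL of PBS, as a tail-vein injection on each of 5 days after the injury. The PBS group had the same injury and the same schedule of 100 µL injections of PBS without vesicles, and all mice of both groups received antibiotics. Each group is 1 library that pools 3 mice, so the spread between mice cannot be seen, no test between the groups was possible, and every interval given covers counting error only.

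The AEVs library held 17055 barcodes and 81875882 UMIs (unique molecular identifiers, 1 per captured transcript), and the PBS library held 15325 barcodes and 82953601 UMIs. After filters on genes, UMIs and mitochondrial share and the removal of putative doublets, 15642 nuclei with a median of 2408 UMIs remained in AEVs and 13874 nuclei with a median of 2587 UMIs in PBS. Before the filters, 103 barcodes of AEVs and 527 of PBS exceeded a mitochondrial share of 5%. The libraries had 177 barcode sequences in common.

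Voltage-gated channels open when the membrane depolarises. The α subunit of a sodium channel forms the pore that carries the rising phase of the action potential, and its β subunits are single-pass adhesion proteins that set gating and surface density. In calcium channels the α1 subunit forms the pore, the cytoplasmic β subunit and the extracellular α2δ subunit raise the number of channels at the membrane, and α2δ-1 and α2δ-2 bind gabapentin and pregabalin, drugs used for pain after spinal cord injury. Most γ subunits of the nervous system, among them Cacng2, Cacng3, Cacng4 and Cacng8, are better known as auxiliary subunits of AMPA-type glutamate receptors.

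Sodium channels close within milliseconds because a short hydrophobic particle between domains III and IV plugs the pore. The coding sequence around this particle is shown for Scn8a, a classical channel, and for Scn7a, an atypical one, since it is a stretch that the classical channels have in common. Capitals mark the 3 codons of the particle, and the sequences are the coding strand of GENCODE M21 transcripts (mm10).
Scn8a: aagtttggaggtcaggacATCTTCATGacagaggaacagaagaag
Scn7a: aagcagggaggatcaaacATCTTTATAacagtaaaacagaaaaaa
The surrounding residues were found in all 10 α genes, and of the 3 capital codons the first reads the same in Scn8a and Scn7a while the other two differ. Scn1a lies at chr2:66270778-66440840, minus strand, in the same cluster of sodium channel genes as Scn7a at chr2:66673425-66784914, minus strand. Scn8a lies at chr15:100869858-101045938, plus strand.

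High-voltage-activated calcium channels bind their β subunit through a site in the loop between domains I and II of the α1 subunit. This site was searched in the translated transcripts of the 10 α1 genes and was found in 7, with no match of the same residues in the T-type genes Cacna1g, Cacna1h and Cacna1i. It is printed for the α1 genes whose levels outside neurons are described below, with the codons of its core in capitals.
Cacna1a: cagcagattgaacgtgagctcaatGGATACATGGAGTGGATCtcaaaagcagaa
Cacna1c: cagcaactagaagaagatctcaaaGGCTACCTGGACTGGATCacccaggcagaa
Cacna1d: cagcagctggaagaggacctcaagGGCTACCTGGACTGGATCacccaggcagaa
Cacna1e: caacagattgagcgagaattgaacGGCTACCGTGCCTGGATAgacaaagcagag
Cacna1a lies at chr8:84388440-84640246, plus strand, Cacna1c at chr6:118587240-119196418, minus strand, Cacna1d at chr14:30039939-30491455, minus strand, and Cacna1e at chr1:154390731-154884501, minus strand. The core codons of Cacna1c and Cacna1d, both L-type, read the same.

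Nuclei were grouped without the 40 channel genes among the clustering genes, and classes were named from marker genes. The neuron-like class held 4759 nuclei in AEVs and 3450 in PBS, with a median of 7605 UMIs per nucleus in AEVs and 10162 in PBS, and all 10 neuron markers passed the UMI minimum there, with a summed level of 24963 CPM (counts per 1000000 UMIs of the class) in AEVs and 24715 CPM in PBS. Oligodendrocyte markers summed to 562 CPM in AEVs and 834 CPM in PBS among the same nuclei. Outside the neuron-like class, the summed neuron markers give a measure of neuronal RNA from other sources. Relative to the neuron-like level they reached 3.70% in AEVs and 3.04% in PBS in oligodendrocyte-like nuclei, 3.45% in AEVs and 3.15% in PBS in microglia-like nuclei and 8.16% in AEVs and 5.03% in PBS in astrocyte-like nuclei. They were far higher in oligodendrocyte precursor-like nuclei, at 16.9% in AEVs and 14.3% in PBS, in ependymal-like nuclei, at 26.0% in AEVs and 30.2% in PBS, and in a shallow class led by neurofilament genes, at 23.5% in AEVs and 26.5% in PBS. A channel gene at such a share of its neuronal level is not read below as made by that class.

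Levels differed widely between classes. Of the 34 genes with at least 50 UMIs over both libraries, 15 had their highest level in neuron-like nuclei in both libraries, and 12 had their highest level in 1 other class in both. Each gene is compared with itself across classes, and levels of different genes are not ranked. An order of classes is called clear where the 95% counting intervals of the highest and the next class stayed apart in both libraries.

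**Figure D1:**
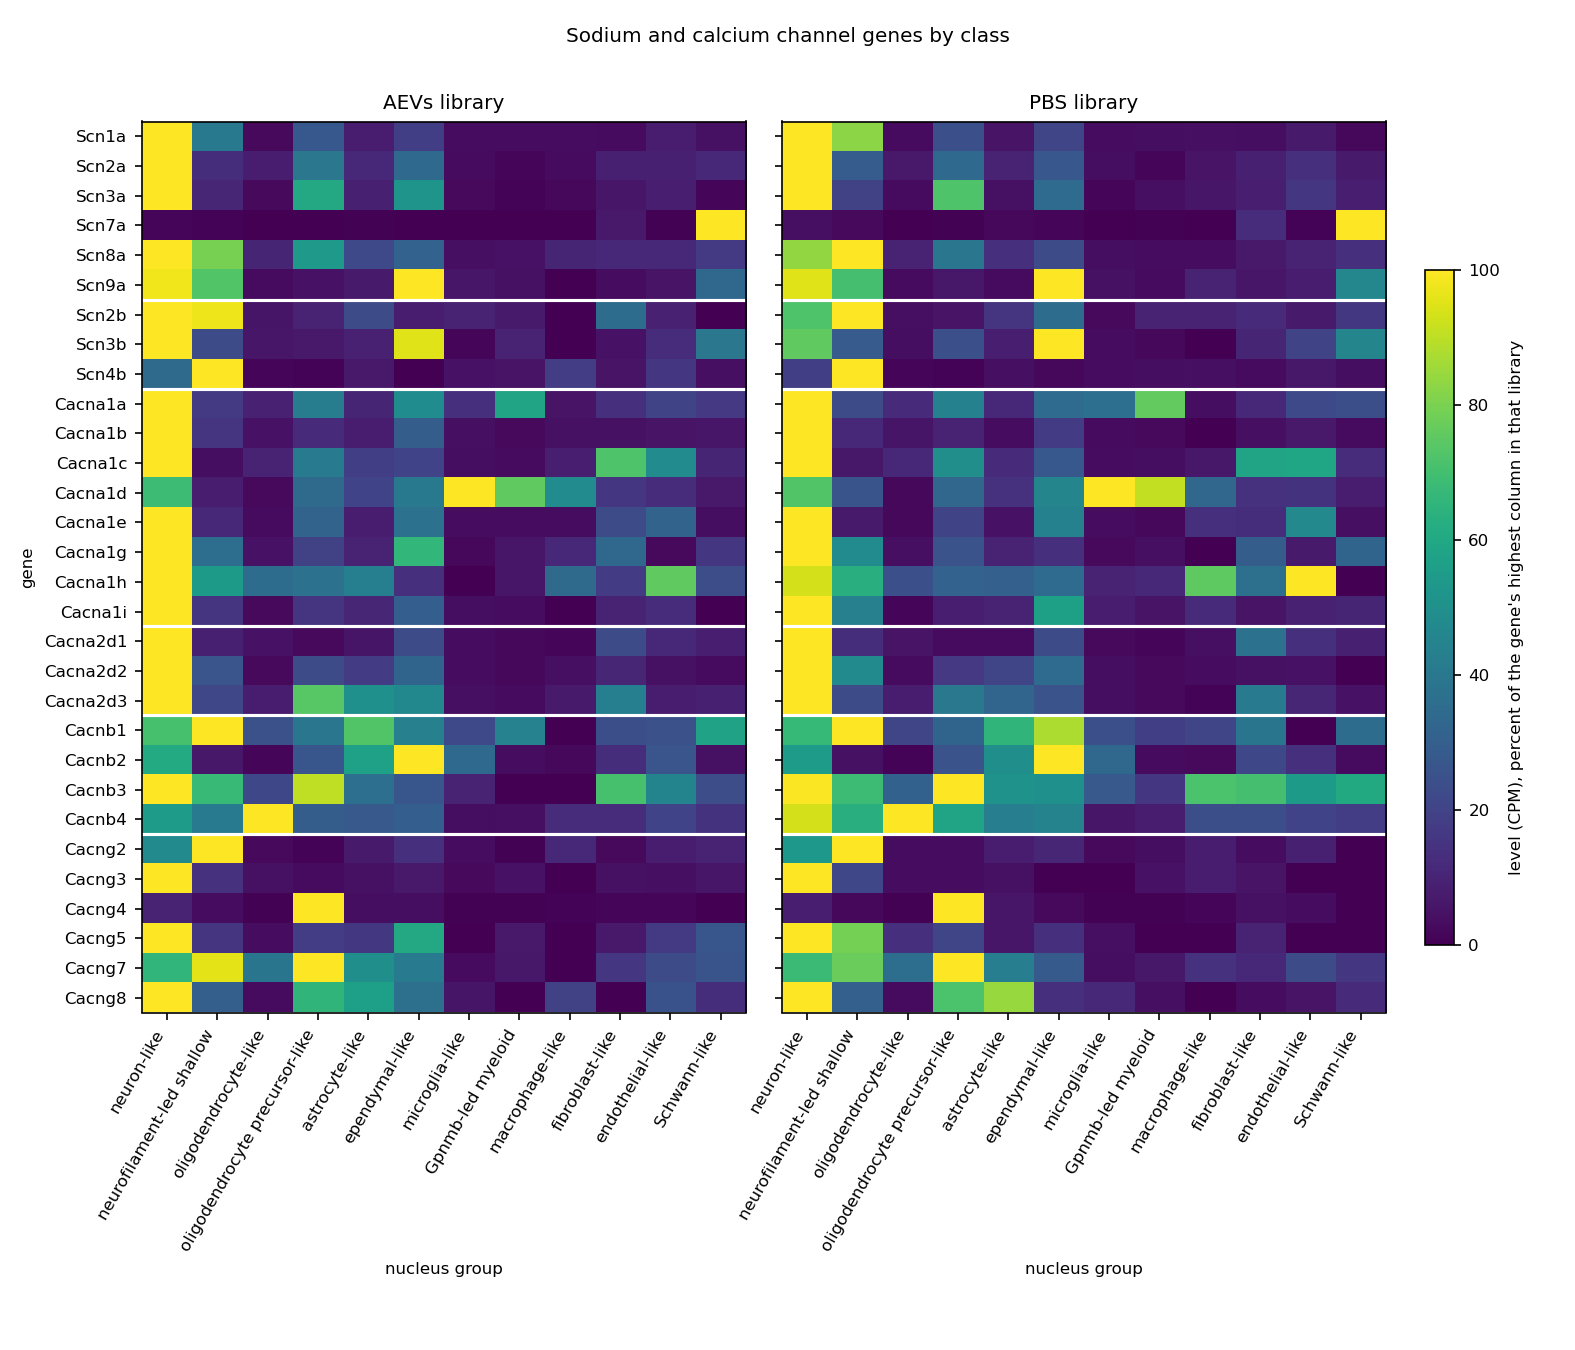
Levels of 30 channel genes with at least 1000 UMIs over both libraries (rows, grouped by subunit) in 12 classes of nuclei (columns), with the AEVs library in the left panel and the PBS library in the right; colour gives the level in CPM as a percent of the gene's highest column in that library. Many rows peak in the neuron-like column, more of them in AEVs than in PBS, while Cacna1d peaks in microglia-like, Cacnb4 in oligodendrocyte-like, Cacng4 in oligodendrocyte precursor-like, Scn7a in Schwann-like and Cacnb2 in ependymal-like nuclei.

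Among the sodium channel α genes, Scn1a, Scn2a and Scn3a were neuronal. Scn1a, which encodes Nav1.1 of fast-spiking neurons, had 599.8 CPM in AEVs and 573 CPM in PBS in neuron-like nuclei, and 242 CPM in AEVs and 474 CPM in PBS in the neurofilament-led class that came next. Scn2a (Nav1.2) had 472 CPM in AEVs and 439.8 CPM in PBS in neuron-like nuclei and 188 CPM in AEVs and 151 CPM in PBS in oligodendrocyte precursor-like nuclei, its next class. Scn3a (Nav1.3), known as the channel of the embryonic nervous system and as one that returns in injured axons of the rat, had 239 CPM in AEVs and 193 CPM in PBS in neuron-like nuclei and 144 CPM in AEVs and 140.0 CPM in PBS in oligodendrocyte precursor-like nuclei. The order was clear for all 3, and the precursor levels of Scn2a and Scn3a were a larger share of the neuronal level than the summed neuron markers were there.

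Scn8a (Nav1.6), the main channel of nodes of Ranvier and mature axon initial segments, was divided between 2 classes. It had 228 CPM in AEVs and 281 CPM in PBS in neuron-like nuclei and 181 CPM in AEVs and 335 CPM in PBS in the neurofilament-led class, so its highest class differed between the libraries, each time with intervals that stayed apart. Scn9a (Nav1.7), the pain channel of sensory neurons, had 74.9 CPM in AEVs and 72.8 CPM in PBS in neuron-like nuclei and 76.7 CPM in AEVs and 76.7 CPM in PBS in ependymal-like nuclei, and the intervals of these classes overlapped.

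Scn7a, which encodes the sodium-sensing channel Nax, belonged to Schwann-like nuclei, with 652 CPM in AEVs and 330.1 CPM in PBS. The 95% interval of that level was 565 to 749 CPM in AEVs and 269 to 401 CPM in PBS. Fibroblast-like nuclei came next at 44.6 CPM in AEVs and 42.4 CPM in PBS, and neuron-like nuclei had 12.1 CPM in AEVs and 13.5 CPM in PBS. Schwann-like nuclei exceeded the next class by a wide margin in both libraries, and Scn7a is also one of the 10 leading genes of that cluster although it was not used to form it.

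The skeletal muscle channel Scn4a and the sensory ganglion channels Scn10a (Nav1.8) and Scn11a (Nav1.9) had 8, 8 and 18 UMIs over all nuclei of both libraries. Counts this low give no level by class.

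Among the sodium channel β genes, Scn4b was highest in the neurofilament-led class. Scn4b, which supports the resurgent current of fast-firing neurons, had 78.3 CPM in AEVs and 179 CPM in PBS in the neurofilament-led class and 27.1 CPM in AEVs and 33.1 CPM in PBS in neuron-like nuclei. The order was clear in both libraries.

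Scn2b, a disulfide-linked β subunit, had 23.0 CPM in AEVs and 29.1 CPM in PBS in neuron-like nuclei and 22.4 CPM in AEVs and 40.3 CPM in PBS in the neurofilament-led class, with overlapping intervals in both libraries. Scn3b, a β subunit prominent in the developing nervous system, had 32.6 CPM in AEVs and 21.6 CPM in PBS in neuron-like nuclei and 31.0 CPM in AEVs and 28.5 CPM in PBS in ependymal-like nuclei, again with overlapping intervals.

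The calcium channel α1 genes split into neuronal genes and genes with high levels elsewhere too. Cacna1b, the N-type channel of presynaptic terminals and the target of ziconotide, had 211 CPM in AEVs and 215 CPM in PBS in neuron-like nuclei, against 62.1 CPM in AEVs and 37.4 CPM in PBS in ependymal-like nuclei. Cacna1e, the R-type channel, had 441 CPM in AEVs and 465 CPM in PBS in neuron-like nuclei. Its next class differed between the libraries, being ependymal-like in AEVs at 166 CPM and endothelial-like in PBS at 219 CPM.

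Cacna1a, the P/Q-type channel of fast synaptic release, was highest in neuron-like nuclei, with 550.3 CPM in AEVs and 604 CPM in PBS. The next class was a Gpnmb-led myeloid class, with 321 CPM in AEVs and 458 CPM in PBS, where neuron markers stood at 3.05% in AEVs and 2.89% in PBS of their neuronal level. Cacna1c, the L-type channel of smooth and heart muscle and of many neurons, had 444 CPM in AEVs and 540.3 CPM in PBS in neuron-like nuclei, 321 CPM in AEVs and 315 CPM in PBS in fibroblast-like nuclei and 213 CPM in AEVs and 319.6 CPM in PBS in endothelial-like nuclei.

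Cacna1d, the other neuronal L-type channel, was highest outside neurons. Microglia-like nuclei had 464 CPM in AEVs and 464 CPM in PBS, with intervals of 436 to 493 CPM in AEVs and 434 to 494 CPM in PBS. Gpnmb-led myeloid nuclei had 349.7 CPM in AEVs and 421 CPM in PBS, with an interval that overlapped the microglia-like one in PBS, and neuron-like nuclei had 319 CPM in AEVs and 338 CPM in PBS. On the opposite strand, Dcp1a overlaps Cacna1d and had 52.9 CPM in AEVs and 45.5 CPM in PBS in microglia-like nuclei, and reads of the 2 genes cannot be told apart where the library's strand is not stated.

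The low-voltage-activated T-type genes open near the resting potential. Cacna1g had 41.3 CPM in AEVs and 40.0 CPM in PBS in neuron-like nuclei and 27.4 CPM in AEVs but 5.35 CPM in PBS in ependymal-like nuclei. Cacna1i was highest in neuron-like nuclei, with 24.5 CPM in AEVs and 31.4 CPM in PBS. Ependymal-like nuclei came next at 7.31 CPM in AEVs and 17.8 CPM in PBS, and the order was clear in AEVs alone. Cacna1h was spread more evenly, with 13.7 CPM in AEVs and 9.58 CPM in PBS in neuron-like nuclei and 10.4 CPM in AEVs and 10.2 CPM in PBS in endothelial-like nuclei.

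Cacna1f, the retinal L-type channel, had 26 UMIs in AEVs and 28 UMIs in PBS in neuron-like nuclei, and the skeletal muscle genes Cacna1s and Cacng1 together with Cacng6 had 15, 34 and 17 UMIs over all nuclei.

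Of the α2δ genes, 3 were neuronal. Cacna2d1 had 649 CPM in AEVs and 649 CPM in PBS in neuron-like nuclei and 151 CPM in AEVs and 246 CPM in PBS in fibroblast-like nuclei. Cacna2d2 had 113 CPM in AEVs and 117 CPM in PBS in neuron-like nuclei against 36.5 CPM in AEVs and 41.0 CPM in PBS in ependymal-like nuclei and 29.8 CPM in AEVs and 55.8 CPM in PBS in the neurofilament-led class. Cacna2d3, which does not bind gabapentin with high affinity, had 513 CPM in AEVs and 666 CPM in PBS in neuron-like nuclei, where its order was clear, then 379.6 CPM in AEVs and 266 CPM in PBS in oligodendrocyte precursor-like and 222 CPM in AEVs and 275 CPM in PBS in fibroblast-like nuclei. Cacna2d4 was low everywhere, and its highest class was oligodendrocyte-like, with 2.65 CPM in AEVs and 9.49 CPM in PBS and no clear order.

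Of the calcium channel β genes, Cacnb4 and Cacnb2 had their highest CPM in a glial class, with substantial levels in neuron-like nuclei too. Cacnb4 was highest in oligodendrocyte-like nuclei, with 485 CPM in AEVs and 319 CPM in PBS, against 267 CPM in AEVs and 298 CPM in PBS in neuron-like nuclei. By count, neuron-like nuclei held 11578 of the 18883 Cacnb4 UMIs in AEVs and 12945 of 18351 in PBS. Cacnb2 was highest in ependymal-like nuclei, with 672 CPM in AEVs and 802 CPM in PBS. Neuron-like nuclei had 411 CPM in AEVs and 441 CPM in PBS of Cacnb2, astrocyte-like nuclei 386 CPM in AEVs and 401 CPM in PBS and microglia-like nuclei 231 CPM in AEVs and 268 CPM in PBS.

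For the other β genes no class was clearly highest. Cacnb1, the β subunit of skeletal muscle, had 16.8 CPM in AEVs and 18.3 CPM in PBS in the neurofilament-led class, 12.2 CPM in AEVs and 12.0 CPM in PBS in astrocyte-like nuclei and 7.31 CPM in AEVs and 16.0 CPM in PBS in ependymal-like nuclei. Cacnb3 had 13.7 CPM in AEVs and 10.6 CPM in PBS in neuron-like nuclei and 12.4 CPM in AEVs and 10.7 CPM in PBS in oligodendrocyte precursor-like nuclei. The intervals overlapped for both genes.

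Among the γ genes, Cacng4 stood out in oligodendrocyte precursor-like nuclei, with 432 CPM in AEVs and 435 CPM in PBS, against 41.0 CPM in AEVs and 36.8 CPM in PBS in neuron-like nuclei. Cacng7 was also highest there, with 62.2 CPM in AEVs and 81.8 CPM in PBS, but the neurofilament-led class had 59.6 CPM in AEVs and 63.2 CPM in PBS with an overlapping interval. Cacng2 (stargazin), which carries AMPA receptors to synapses, had 164 CPM in AEVs and 198 CPM in PBS in the neurofilament-led class and 78.4 CPM in AEVs and 106 CPM in PBS in neuron-like nuclei.

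Cacng3, Cacng5 and Cacng8 were highest in neurons in both libraries. Cacng3 had 52.4 CPM in AEVs and 47.0 CPM in PBS in neuron-like nuclei, against 7.45 CPM in AEVs and 10.1 CPM in PBS in the neurofilament-led class. Cacng8 had 24.6 CPM in AEVs and 26.8 CPM in PBS in neuron-like nuclei, and its next class was oligodendrocyte precursor-like at 16.1 CPM in AEVs and astrocyte-like at 22.6 CPM in PBS. Cacng5 had 12.1 CPM in AEVs and 12.8 CPM in PBS, with 7.31 CPM in ependymal-like nuclei of AEVs and 10.1 CPM in the neurofilament-led class of PBS, and the intervals of Cacng5 and Cacng8 overlapped.

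Neuron-like nuclei were then divided into 45 clusters and joined into subtypes by transmitter genes. Inhibitory clusters (Slc32a1, Gad1, Gad2) were split by the glycine transporter Slc6a5, and excitatory clusters (Slc17a6) by Ebf2 and Lmx1b, genes of dorsal excitatory neurons. The Ebf2-high excitatory subtype was the largest, with 1640 nuclei in AEVs and 969 in PBS, or 34.5% of neuron-like nuclei in AEVs and 28.1% in PBS. The cholinergic subtype had 68 nuclei in AEVs and 87 in PBS and is given by level only. A mixed-transmitter subtype held excitatory and inhibitory nuclei together.

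**Figure D2:**
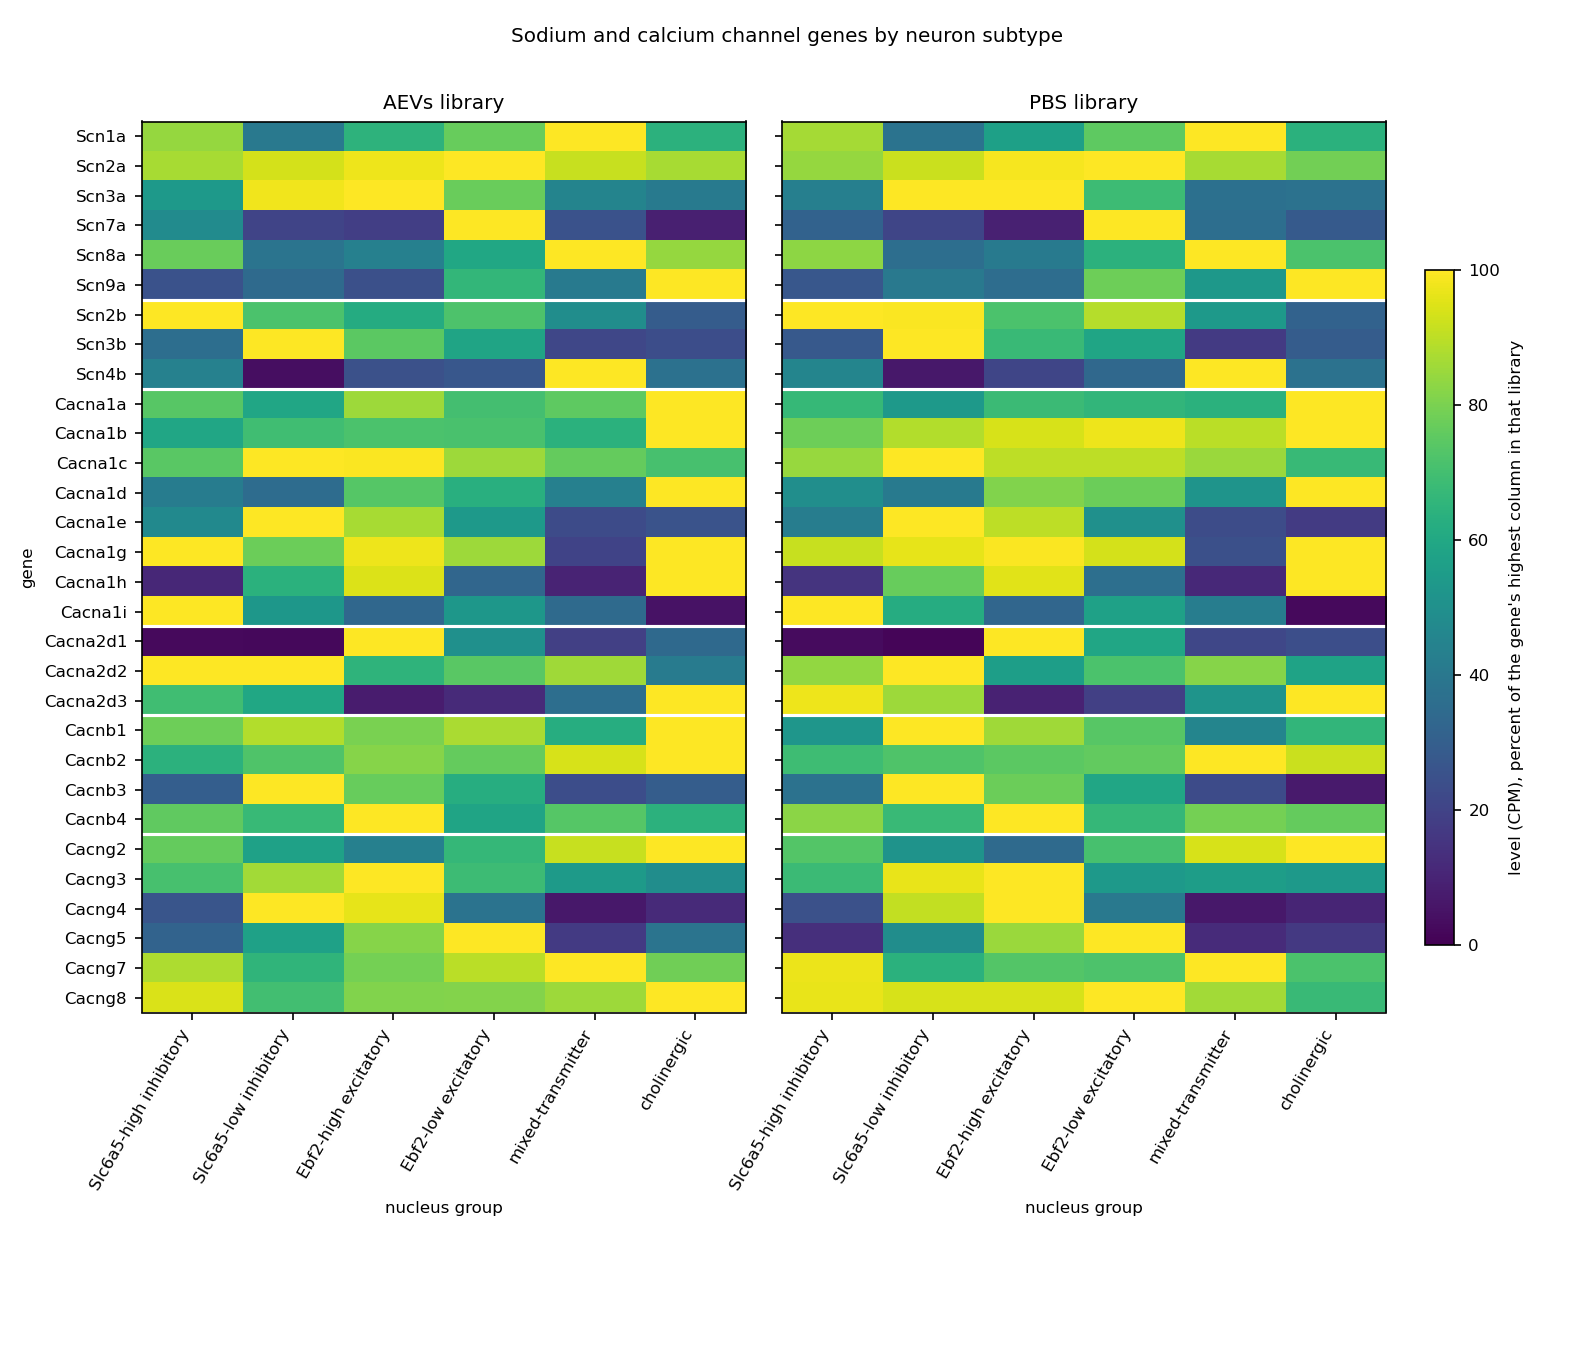
Levels of 30 channel genes with at least 1000 UMIs over both libraries (rows, grouped by subunit) in 6 neuron subtypes (columns), with the AEVs library in the left panel and the PBS library in the right; colour gives the level in CPM as a percent of the gene's highest column in that library. Cacna2d1 is bright in the excitatory columns and dark in the inhibitory ones, Cacna2d3 the reverse, and Scn1a, Scn8a and Scn4b are brightest in the mixed-transmitter column.

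The α2δ genes divided neurons by transmitter. Cacna2d1 had 1626 CPM in AEVs and 1759.5 CPM in PBS in Ebf2-high excitatory nuclei and 814 CPM in AEVs and 1045 CPM in PBS in Ebf2-low excitatory nuclei. It stood at 39.7 CPM in AEVs and 48.5 CPM in PBS in Slc6a5-high inhibitory nuclei and at 35.2 CPM in AEVs and 25.6 CPM in PBS in Slc6a5-low inhibitory nuclei. The split held cluster by cluster: the 14 Ebf2-high clusters spanned 762 to 3237 CPM in AEVs and 935 to 3266 CPM in PBS, and the 6 Slc6a5-low clusters 0 to 59.6 CPM in AEVs and 9.70 to 50.6 CPM in PBS. The highest clusters were led by Nts and Trh, at 3237 CPM in AEVs and 3226 CPM in PBS, and by Nts and Tac2, at 3224 CPM in AEVs and 3266 CPM in PBS.

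Cacna2d3 ran the other way. It had 984 CPM in AEVs and 1279 CPM in PBS in Slc6a5-high inhibitory nuclei, 848 CPM in AEVs and 1119 CPM in PBS in Slc6a5-low inhibitory nuclei and 1423 CPM in AEVs and 1311 CPM in PBS in cholinergic nuclei. Ebf2-high excitatory nuclei had 110.1 CPM in AEVs and 128 CPM in PBS. The highest cluster, led by Crabp1 and Cdh3, had 2062 CPM in AEVs and 2615 CPM in PBS, and one led by Bnc2 and Grp had 22.3 CPM in AEVs and 4.87 CPM in PBS. Clusters of the subtypes overlapped for this gene, as the 5 Slc6a5-high clusters spanned 236 to 2062 CPM in AEVs and 248 to 2615 CPM in PBS and the 14 Ebf2-high clusters 9.15 to 404 CPM in AEVs and 4.87 to 679 CPM in PBS.

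**Figure D3:**
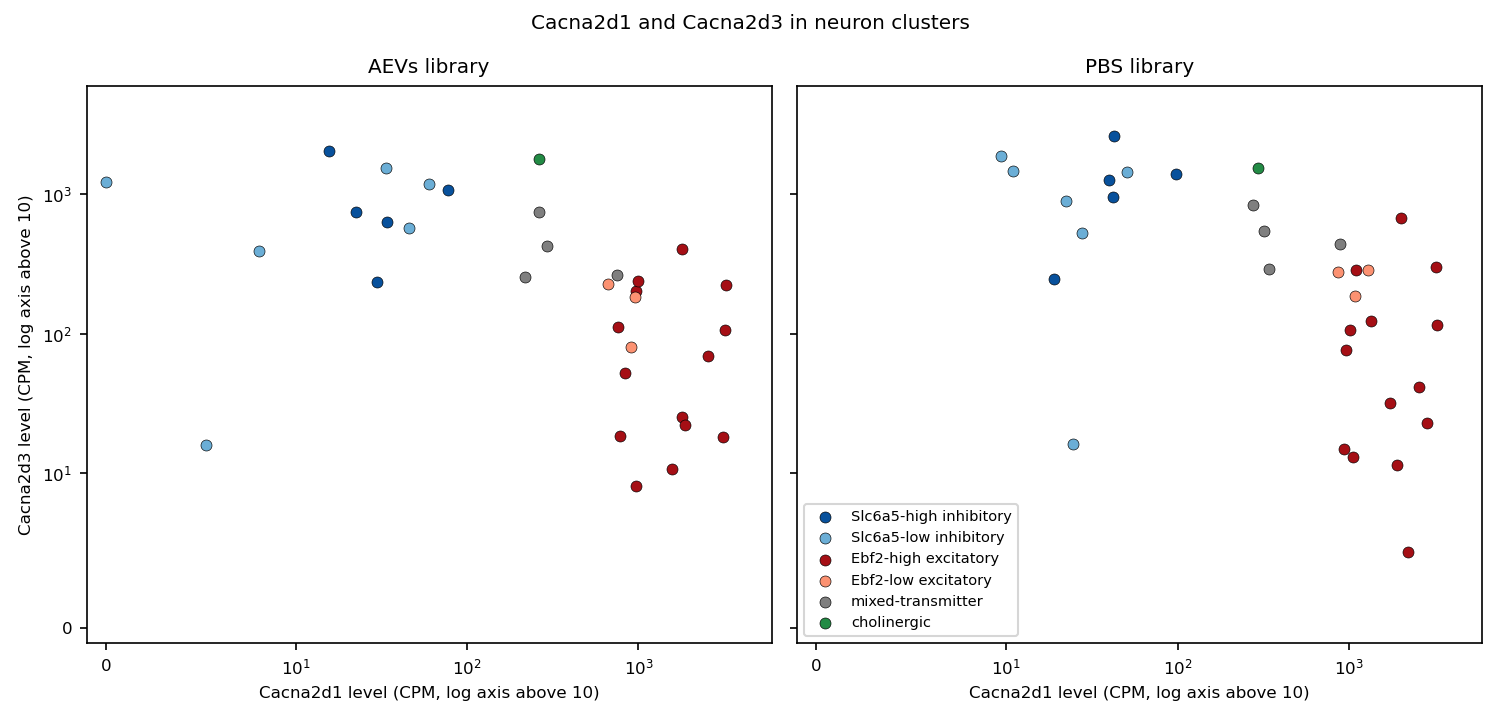
Cacna2d1 level (horizontal axis, CPM) against Cacna2d3 level (vertical axis, CPM) in the 33 neuron clusters with at least 50 nuclei, coloured by subtype and without the clusters of low depth and those with glial genes, with the AEVs library in the left panel and the PBS library in the right; both axes are logarithmic above 10 CPM. Ebf2-high excitatory clusters sit at high Cacna2d1 and inhibitory clusters at low Cacna2d1, most of these with high Cacna2d3, in both libraries.

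Inhibitory clusters were not all high in Cacna2d3. The Slc6a5-low cluster led by Npy and Qrfpr had 15.8 CPM in AEVs and 16.2 CPM in PBS of Cacna2d3 and 5.28 CPM in AEVs and 24.4 CPM in PBS of Cacna2d1, and it held the highest level of Cacna2d2, at 253 CPM in AEVs and 248 CPM in PBS, and of Scn9a, at 362 CPM in AEVs and 252 CPM in PBS. Its Cacna1a level, 362 CPM in AEVs and 402 CPM in PBS, was among the lowest of the 33 clusters compared. Those 33 had at least 50 nuclei over both libraries and left out the clusters of low depth and those with glial genes.

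Scn1a, Scn8a and Scn4b had their highest subtype level in mixed-transmitter nuclei in both libraries. Scn1a had 798 CPM in AEVs and 756 CPM in PBS there, then 671 CPM in AEVs and 653 CPM in PBS in Slc6a5-high inhibitory nuclei, and 322 CPM in AEVs and 288 CPM in PBS in Slc6a5-low inhibitory nuclei, the lowest subtype. Scn8a had 339 CPM in AEVs and 398 CPM in PBS in mixed-transmitter nuclei against 131 CPM in AEVs and 144 CPM in PBS in Slc6a5-low inhibitory nuclei, and Scn4b had 56.2 CPM in AEVs and 62.8 CPM in PBS against 1.99 CPM in AEVs and 4.08 CPM in PBS. Single clusters overlapped across subtypes, since the 4 mixed-transmitter clusters spanned 446 to 922 CPM in AEVs and 435 to 859 CPM in PBS of Scn1a and the 14 Ebf2-high clusters 109.5 to 957 CPM in AEVs and 80.5 to 921 CPM in PBS. The mixed-transmitter cluster with Scn4b itself among its 10 leading genes, next to Foxp2, Zfhx3 and Meis2, was highest of all in both libraries for Scn8a, at 431 CPM in AEVs and 465 CPM in PBS, and for Scn4b, at 88.7 CPM in AEVs and 89.5 CPM in PBS. For Scn1a it had 922 CPM in AEVs and 859 CPM in PBS, below an Ebf2-high cluster led by Maf and C1ql3 in AEVs and below another Ebf2-high cluster, with Pde5a among its leading genes, in PBS.

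Scn3a differed from these. It had 338 CPM in AEVs and 327 CPM in PBS in Ebf2-high excitatory and 332 CPM in AEVs and 327 CPM in PBS in Slc6a5-low inhibitory nuclei, against 152 CPM in AEVs and 120.3 CPM in PBS in mixed-transmitter nuclei. The cluster with the lowest Scn1a, led by Bnc2 and C1qtnf7 at 109.5 CPM in AEVs and 80.5 CPM in PBS, had a high Scn3a level, at 642 CPM in AEVs and 437 CPM in PBS. Scn2a varied little, from 446 CPM in AEVs and 393 CPM in PBS in cholinergic nuclei up to 514 CPM in AEVs and 499.9 CPM in PBS in Ebf2-low excitatory nuclei.

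Neuronal Scn7a was highest in an Ebf2-low excitatory cluster with Nms and Cdh23 among its leading genes, at 83.6 CPM in AEVs and 86.4 CPM in PBS.

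Calcium channel α1 genes also differed widely between clusters. Cacna1e had 771 CPM in AEVs and 941 CPM in PBS in Slc6a5-low inhibitory nuclei and 671 CPM in AEVs and 846 CPM in PBS in Ebf2-high excitatory nuclei, against 175 CPM in AEVs and 220.3 CPM in PBS in mixed-transmitter nuclei. A cluster led by Tyr and Rxfp2 had 1335 CPM in AEVs and 1578 CPM in PBS of Cacna1e, and the cholinergic cluster compared had 85.7 CPM in AEVs and 77.9 CPM in PBS. Cacna1d showed the opposite, with 695 CPM in AEVs and 644 CPM in PBS in that cholinergic cluster and 103 CPM in AEVs and 116 CPM in PBS in the cluster led by Tyr and Rxfp2. Ebf2-high clusters reached up to 1146 CPM in AEVs and 1590 CPM in PBS of Cacna1e. For Cacna1d they reached up to 665 CPM in AEVs and 615 CPM in PBS.

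Cacna1a was highest in an excitatory cluster led by Maf and C1ql3, at 994 CPM in AEVs and 1062 CPM in PBS, and Cacna1c in one led by Npff and Reln, at 983 CPM in AEVs and 1100.4 CPM in PBS. The Cacna1a level was nearly matched by an Ebf2-high cluster with Pde5a among its leading genes, at 993 CPM in AEVs and 1048 CPM in PBS. The cholinergic cluster had 804 CPM of Cacna1a in AEVs and 1062 CPM in PBS. Among T-type genes, Cacna1i peaked in Slc6a5-high inhibitory nuclei at 51.4 CPM in AEVs and 62.7 CPM in PBS, with 81.2 CPM in AEVs and 129.5 CPM in PBS in the cluster led by Sall3 and Hpse2. Cacna1g was low in mixed-transmitter nuclei, at 11.4 CPM in AEVs and 14.2 CPM in PBS, against 55.9 CPM in AEVs and 57.8 CPM in PBS in Ebf2-high excitatory nuclei.

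Accessory genes gave the same kind of contrast. Cacnb4 had 805 CPM in AEVs and 877 CPM in PBS in an excitatory cluster led by Nts and C1ql3. Cacng3 had 271 CPM in AEVs and 381 CPM in PBS in the cluster led by Npff and Reln, and Cacng4 132 CPM in AEVs and 156 CPM in PBS in the cluster led by Tyr and Rxfp2, against 2.37 CPM in AEVs and 2.94 CPM in PBS in the Foxp2-led cluster with Scn4b among its leading genes. Cacng2 was highest in the cholinergic cluster, at 138 CPM in AEVs and 170.4 CPM in PBS. Every highest or lowest cluster was set on the lower of its levels in the 2 libraries, so the order within 1 library can differ.

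Against this variation between neurons, the libraries differed little. Ratios are AEVs over PBS throughout, and a gene was called higher or lower where its level differed at least 1.5-fold. Over all nuclei together 34 of the 40 genes reached 50 UMIs over both libraries, of which 1, Scn3b, was called higher and 0 lower (background 10.4% higher and 4.65% lower). That log2 ratio of 0.59 lay at the edge of 1.5-fold: it was 0.58 under a stricter nucleus filter and 0.49 under TMM scaling, and 4 of 9 alternatives passed 1.5-fold. In neuron-like nuclei 34 genes reached 50 UMIs as well. Of the 34, 13 had a higher level in AEVs and 21 a lower one, and the median log2 ratio was -0.065, against 0.11 over all genes tested. TMM scaling and median ratio scaling, which set the typical gene to no change, shift each neuronal log2 ratio by -0.11, and 9 of the 34 are then above a ratio of 1 and 25 below it. Scn3b passed 1.5-fold, so 1 of 34 was called higher and 0 lower, and 4 of 12 alternatives kept its call, while over all 17162 genes tested the shares called were 11.0% higher and 4.22% lower.

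By counting error alone, 11 of the 34 intervals lay above a ratio of 1, 14 lay below it and 9 held 1. Differences in median depth (7605 UMIs in AEVs and 10162 in PBS) and in the mix of subtypes moved with the libraries, and values at equal depth and with the same mix are given for Scn3b below. Without the clusters of low depth and those with glial genes, the median log2 ratio was -0.081. The median of all genes changed with gene span. It was 0.19 on the log2 scale for genes under 50 kb, with -0.089 for the 10 channel genes of that span. For genes of 50 to 200 kb it was -0.019, with 0.057 for the 16 channel genes there. For genes of 200 kb or more it was -0.16, with -0.12 for the 8 channel genes there. The channel genes were thus below the median of all genes in the shortest span only.

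**Figure D4:**
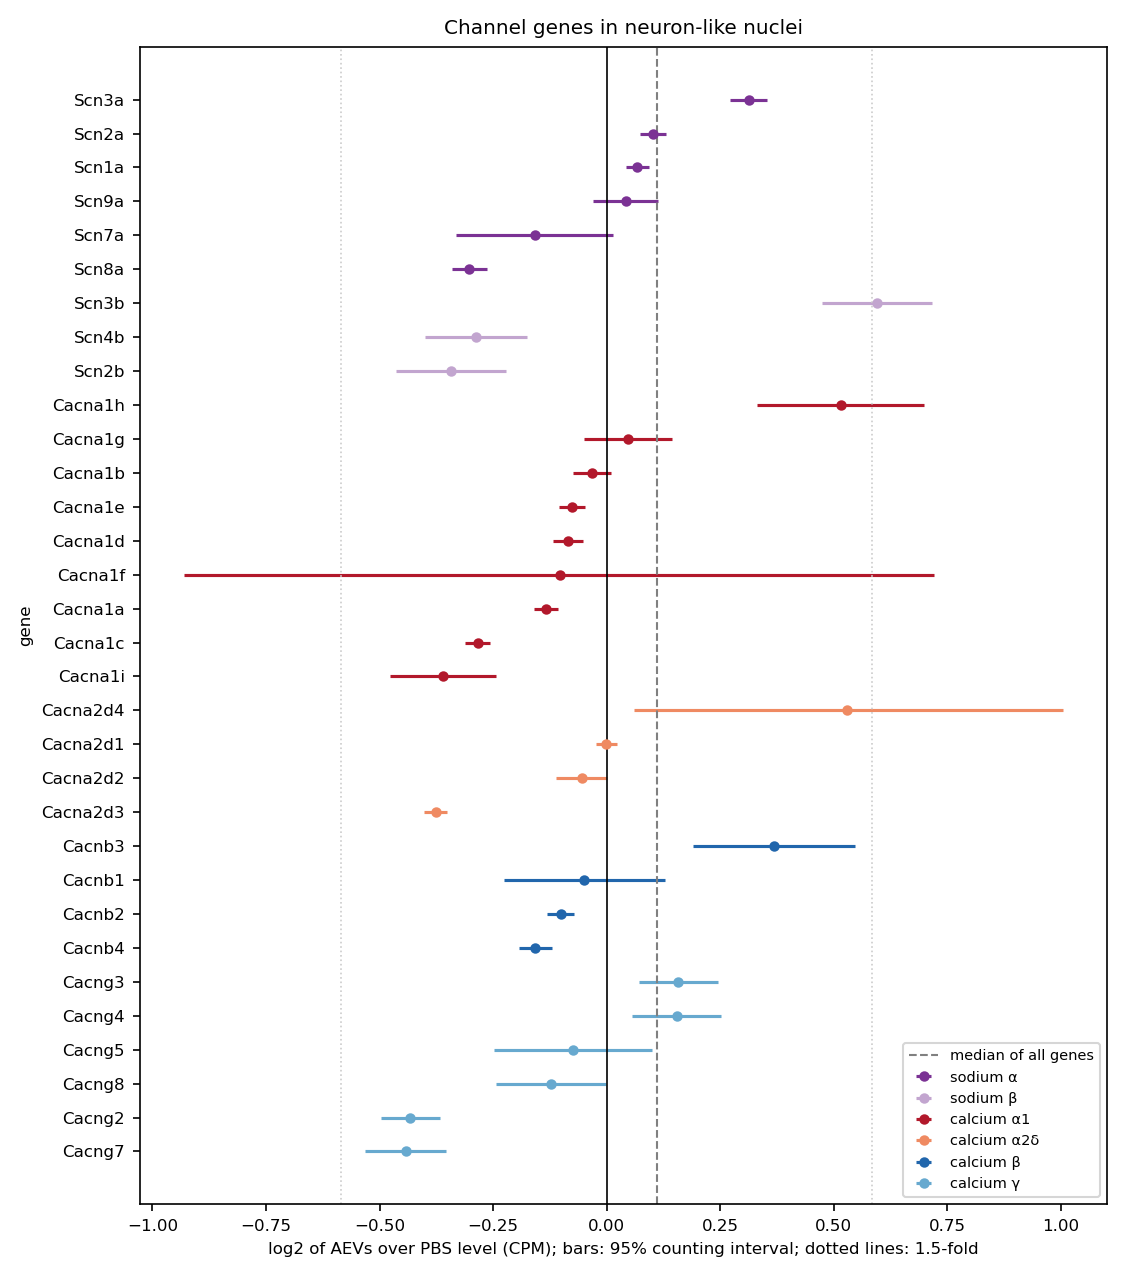
Log2 ratio of AEVs over PBS in neuron-like nuclei (horizontal axis) for 32 of the 34 channel genes with at least 50 UMIs (rows, coloured and grouped by subunit), with bars for the 95% counting interval; the solid line marks equal levels, the dashed line the median of all genes tested and the dotted lines 1.5-fold. Scn3b is the 1 gene past the upper dotted line and none passes the lower one.

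Scn3b had 1415 UMIs in AEVs and 939 UMIs in PBS, or 32.6 CPM in AEVs and 21.6 CPM in PBS, a ratio of 1.51 (95% interval 1.39 to 1.64). It was higher in AEVs in all 6 subtypes in which it was tested and in 14 of 17 neuron clusters. The ratio was 1.55 (1.18 to 2.05) in Slc6a5-high inhibitory nuclei and 1.504 (1.16 to 1.95) in mixed-transmitter nuclei. In Slc6a5-low inhibitory nuclei, where its level was higher than in either, it was 1.20 (0.999 to 1.44). The neuronal log2 ratio of 0.60 was below 1.5-fold, at 0.42, when both libraries were given the same mix of neuron clusters, and at 0.41 when nuclei were thinned to 1000 UMIs each.

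Scn3a pointed the same way below 1.5-fold. Scn3a had 239 CPM in AEVs and 193 CPM in PBS, a ratio of 1.24 (95% interval 1.21 to 1.28), and was higher in all 7 subtypes and in 24 of 33 clusters. Scn1a had a ratio of 1.05 (1.03 to 1.07), which is below 1 under either rescaling, and was higher in 29 of 33 clusters without rescaling.

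Scn2b and Scn4b went the other way. Scn2b had 23.0 CPM in AEVs and 29.1 CPM in PBS, a ratio of 0.789 (95% interval 0.725 to 0.858), and was lower in AEVs in 13 of 14 clusters. Scn4b had 27.1 CPM in AEVs and 33.1 CPM in PBS, a ratio of 0.819 (0.757 to 0.885). It was lower in AEVs in 4 of 6 subtypes, higher in 2, and lower in 7 of 8 clusters. Scn8a, with 228 CPM in AEVs and 281 CPM in PBS and a ratio of 0.811 (0.790 to 0.833), was lower in AEVs in all 7 subtypes and in 28 of 33 clusters. Pooled neuron-like nuclei of AEVs thus had higher levels of Scn3a and Scn3b and lower levels of Scn2b, Scn4b and Scn8a. Mixed-transmitter nuclei, the highest subtype for Scn4b and Scn8a, made up 15.8% of them in AEVs and 18.7% in PBS. Ebf2-high excitatory nuclei, with a high Scn3a level, made up 34.5% in AEVs and 28.1% in PBS. The cluster with the highest Scn4b level had 88.7 CPM in AEVs and 89.5 CPM in PBS. For Scn3a, Scn2b, Scn4b and Scn8a the part of this mix in the pooled ratio was not tested.

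Calcium channel genes were mostly lower in AEVs by small amounts. Of the 9 α1 genes tested 2 were above a ratio of 1 and 7 below it, or 1 and 8 under either rescaling. Cacna1c had 444 CPM in AEVs and 540.3 CPM in PBS, a ratio of 0.821 (95% interval 0.806 to 0.837), and was lower in 30 of 33 clusters. Cacna1a, at a ratio of 0.912 (0.896 to 0.928), and Cacna1e, at 0.948 (0.929 to 0.967), were lower in 27 and 29 of 33 clusters. Cacna1h, with 13.7 CPM in AEVs and 9.58 CPM in PBS, was the α1 gene with the highest ratio, 1.43 (1.26 to 1.62), and was higher in all 5 subtypes tested.

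The 3 lowest neuronal ratios belonged to Cacna2d3, Cacng2 and Cacng7. Cacna2d3 had 513 CPM in AEVs and 666 CPM in PBS, a ratio of 0.770 (95% interval 0.757 to 0.784), and was lower in 22 of 26 clusters. Cacna2d1 had nearly equal levels, with a ratio of 1.00 (0.983 to 1.02), although within clusters it was lower in 23 of 27. Ebf2-high excitatory nuclei, where Cacna2d1 is high, made up a larger share of neuron-like nuclei in AEVs.

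Cacng2 had 78.4 CPM in AEVs and 106 CPM in PBS, a ratio of 0.741 (0.709 to 0.775), and Cacng7 40.9 CPM in AEVs and 55.6 CPM in PBS, a ratio of 0.736 (0.692 to 0.783), and both were lower in AEVs in all 7 subtypes. The β genes Cacnb2 and Cacnb4 had ratios of 0.932 (0.913 to 0.951) and 0.897 (0.874 to 0.919). The accessory calcium channel genes with intervals above 1 were Cacnb3, Cacna2d4, Cacng3 and Cacng4. Their ratios were 1.29 (1.14 to 1.46), 1.44 (1.04 to 2.01), 1.12 (1.05 to 1.18) and 1.11 (1.04 to 1.19). None of these reached 1.5-fold.

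Within subtypes, few genes were called. Of 30 genes tested in Slc6a5-high inhibitory nuclei 2 were higher, Scn3b and Cacng5, and 1 lower, Cacng7 (background 11.6% higher and 2.01% lower). Cacng5 had 48 UMIs in AEVs and 25 UMIs in PBS there, a ratio of 1.78 (1.07 to 3.01), and Cacng7 42.1 CPM in AEVs and 63.2 CPM in PBS, a ratio of 0.666 (0.568 to 0.781). The log2 ratio of Cacng7, -0.59, was -0.41 at a finer clustering (resolution 2) and -0.43 without the mitochondrial limit, and that of Cacng5, 0.83, was 0.54 with doublets kept, all short of 1.5-fold. With nuclei thinned to 1000 UMIs, the log2 ratio of Scn3b there was 0.065. In Slc6a5-low inhibitory nuclei 1 of 30 was lower and 0 higher (background 10.2% higher and 2.45% lower). This was Scn2b, with 25.2 CPM in AEVs and 40.8 CPM in PBS and a ratio of 0.618 (0.484 to 0.788). Its log2 ratio of -0.69 was -0.42 when the channel genes were among the clustering genes.

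Among excitatory nuclei, 1 of 32 genes was higher and 0 lower in the Ebf2-high subtype (background 10.8% higher and 2.24% lower), and 0 of 31 either way in the Ebf2-low subtype (background 10.8% higher and 2.44% lower). The Ebf2-high gene was Scn7a, with 74 UMIs in AEVs and 30 UMIs in PBS. In mixed-transmitter nuclei 1 of 31 was higher, Scn3b, and 1 lower, Scn7a with 96 UMIs in AEVs and 171 UMIs in PBS (background 11.6% higher and 2.26% lower). The log2 ratio of Scn3b there, 0.59, was 0.29 with the same mix of clusters in both libraries and 0.45 under TMM scaling. Scn7a thus had opposite directions in these 2 subtypes on few UMIs.

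Neuron clusters of low depth and clusters with glial genes were kept apart. In the low-depth clusters 1 of 20 genes was higher and 0 lower (background 10.2% higher and 6.68% lower), and this was Scn9a with 35 UMIs in AEVs and 17 UMIs in PBS, a ratio of 1.60 (0.872 to 3.04) whose interval holds 1. Its log2 ratio of 0.68 was 1.58 as a mean over nuclei. In the glia-mixed clusters 3 of 31 were higher and 0 lower (background 7.23% higher and 4.83% lower). They were Scn3b with a ratio of 2.03 (1.55 to 2.67), Cacnb3 with 1.76 (1.16 to 2.66) and Cacna1h with 1.67 (1.12 to 2.49), each on 47 to 114 UMIs per library. The log2 ratio of Cacnb3, 0.81, was 0.41 as a mean over nuclei, and that of Cacna1h, 0.74, was 0.52 with doublets kept, both short of 1.5-fold, while with nuclei thinned to 1000 UMIs they were 3.26 for Cacnb3 and 1.78 for Cacna1h.

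Genes whose products work with these channels gave a similar picture in neuron-like nuclei. Of 14 sodium channel partners tested, 1 was above a ratio of 1 and 13 below it, with 0 called either way (background 11.0% higher and 4.22% lower) and a median log2 ratio of -0.16, against 0.11 over all genes tested. Gene span was not matched here, and the median of all genes of 200 kb or more was -0.16. The highest were Fgf13, an intracellular FGF that binds sodium channel tails, and the ubiquitin ligase gene Nedd4l, with log2 ratios of 0.020, below 0 under either rescaling, and -0.020. The lowest were Nfasc, a scaffold of nodes and initial segments, and Fgf14, with -0.38 and -0.31.

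Of 19 calcium channel partners, 6 were above a ratio of 1 and 13 below it, or 3 and 16 under either rescaling, with a median log2 ratio of -0.14, against 0.11 over all genes tested, again without a match by gene span. Of the 19, 1 was called higher and 0 lower, where the background was 11.0% higher and 4.22% lower. This was Rem2, a small GTPase that inhibits calcium channels, with a log2 ratio of 0.60, which is short of 1.5-fold after either rescaling, followed by the kinase gene Camk2a at 0.26. Stac2, whose product slows inactivation of L-type channels, and the calcium-activated potassium channel gene Kcnma1 were lowest, at -0.57 and -0.42.

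Larger ratios were found outside neurons. In microglia-like nuclei 11 channel genes were tested, of which 0 were called higher and 1 lower (background 12.0% higher and 5.81% lower). That gene was Cacna1a, with 168 UMIs in AEVs and 440 UMIs in PBS over 1413 nuclei in AEVs and 1154 in PBS. Its level was 77.3 CPM in AEVs and 220.1 CPM in PBS, with counting intervals that did not overlap, a ratio of 0.351 (95% interval 0.292 to 0.421).

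The class held 608 UMIs of Cacna1a over both libraries as reported, but 270 at a finer clustering (resolution 2) and 270 under the stricter nucleus filter, with log2 ratios of -1.41 and -1.47. With putative doublets kept, the log2 ratio of microglial Cacna1a was -0.90, against -1.51 without them. Gm16183, on the opposite strand of Cacna1a, had 4 UMIs in AEVs and 1 in PBS there. Cacna1d had nearly the same level in both libraries in these nuclei, with a ratio of 1.00 (0.914 to 1.09). Cacna1a was also lower in the Gpnmb-led myeloid class, with 321 CPM in AEVs and 458 CPM in PBS and a ratio of 0.701 (0.620 to 0.792), and there 0 of 7 genes were called (background 11.3% higher and 7.34% lower). In macrophage-like nuclei Cacna1a was low in both libraries, at 28.5 CPM in AEVs and 23.0 CPM in PBS, and the 1 gene tested was Cacna1d, not called at a ratio of 1.45 (0.933 to 2.27), where the background was 11.1% higher and 12.1% lower. In both libraries Cacna1a was thus highest of the 3 myeloid classes in Gpnmb-led nuclei and lowest in macrophage-like nuclei.

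In oligodendrocyte-like nuclei 24 genes were tested, of which 2 were called higher and 3 lower (background 14.5% higher and 5.13% lower). Cacnb4 had 6032 UMIs in AEVs and 3863 UMIs in PBS, or 485 CPM in AEVs and 319 CPM in PBS, a ratio of 1.52 (95% interval 1.46 to 1.59). The log2 ratio of 0.61 was 0.48 under either scaling that sets the typical gene to no change, below 1.5-fold. Cacnb4 was higher in AEVs in each of the 3 large oligodendrocyte clusters, with 789 CPM in AEVs and 434 CPM in PBS in the one led by Ptgds and Opalin, 345 CPM in AEVs and 262 CPM in PBS in the one led by Aspa and Prr5l, and 344 CPM in AEVs and 273 CPM in PBS in the one with Klk6 among its leading genes. The gene A430018G15Rik on the opposite strand had 4.82 CPM in AEVs and 4.70 CPM in PBS in these nuclei.

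Cacna2d4 went the other way in oligodendrocyte-like nuclei. It had 33 UMIs in AEVs and 115 UMIs in PBS, a ratio of 0.280 (95% interval 0.184 to 0.415), and in the cluster led by Ptgds and Opalin 3.10 CPM in AEVs and 18.6 CPM in PBS. Cacna2d4 overlaps Lrtm2 on the opposite strand, which had 17 UMIs in each library. Cacna1h was called higher on 60 UMIs in AEVs and 30 UMIs in PBS, a ratio of 1.95 (1.24 to 3.13). Scn4b, with 1.45 CPM in AEVs and 3.46 CPM in PBS, and Cacng2, with 4.02 CPM in AEVs and 6.85 CPM in PBS, were called lower in a class whose summed neuron markers stood at 3.70% in AEVs and 3.04% in PBS of their neuronal level. The part of neuronal RNA in these calls was not tested.

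Schwann-like nuclei had 202 UMIs in AEVs and 102 UMIs in PBS of Scn7a, a ratio of 1.98 (95% interval 1.55 to 2.53). With 195 nuclei in AEVs and 151 in PBS and a median depth of 1083 UMIs in AEVs and 1680.0 in PBS, 2 genes could be tested there, of which 1 was called higher and 1, Cacna1a, lower (background 9.81% higher and 10.6% lower). The 10 Schwann markers summed to 18511 CPM in AEVs and 22407 CPM in PBS. In fibroblast-like nuclei, its next class, Scn7a had a ratio of 1.05 (0.743 to 1.47).

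In fibroblast-like nuclei 1 of 15 genes, Cacna1e, was called higher and 3 lower, Cacna2d1, Cacnb2 and Cacng4 (background 11.2% higher and 7.64% lower). Cacna2d1 had 151 CPM in AEVs and 246 CPM in PBS, a ratio of 0.613 (95% interval 0.517 to 0.724). Cacnb2 was lower as well, with 86.7 CPM in AEVs and 175 CPM in PBS, while Cacna1c had a ratio of 1.02 (0.899 to 1.15). Endothelial-like nuclei had 2 of 11 genes higher, Cacnb2 and Cacnb4, and 2 lower, Cacna1e and Cacna2d3 (background 9.92% higher and 5.81% lower). Cacna1e had 139.8 CPM in AEVs and 219 CPM in PBS, a ratio of 0.639 (95% interval 0.502 to 0.811), and its log2 ratio of -0.65 was -0.48 with doublets kept, short of 1.5-fold. Cacnb2 went the other way, with 176 CPM in AEVs and 111 CPM in PBS.

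In astrocyte-like nuclei 4 of 21 genes were called higher and 2 lower (background 8.86% higher and 3.88% lower). The 4 higher ones, Cacna1b, Scn3a, Scn1a and Cacna2d1, are genes of neurons and had between 16.3 and 45.5 CPM in AEVs, and the summed neuron markers of this class also differed, at 8.16% in AEVs and 5.03% in PBS of their neuronal level. Their part in these ratios was not tested. Cacng8 had 64 UMIs in AEVs and 87 UMIs in PBS, a ratio of 0.616 (0.439 to 0.860). Averaged over nuclei instead of UMIs, its log2 ratio was -0.16, against -0.70. Cacnb2 was nearly equal in astrocyte-like nuclei, with a ratio of 0.962 (0.898 to 1.03).

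Ependymal-like nuclei had 2 of 14 genes higher, Scn3a and Cacna1b, and 1 lower, Cacna1c (background 10.6% higher and 8.44% lower). Scn3a had 68 UMIs in AEVs and 38 UMIs in PBS, a ratio of 1.83 (1.22 to 2.80), in a class whose neuron markers stood at 26.0% in AEVs and 30.2% in PBS of the neuronal level, and under a stricter filter on nuclei its log2 ratio was -0.0018, and with nuclei thinned it was 0.23. Cacnb2, the gene with its highest level here, had a ratio of 0.838 (0.728 to 0.964). In oligodendrocyte precursor-like nuclei 1 of 18 genes was higher and 0 lower (background 8.84% higher and 7.40% lower). Cacng4, the gene highest in that class, had a ratio of 0.994 (0.892 to 1.11).

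**Figure D5:**
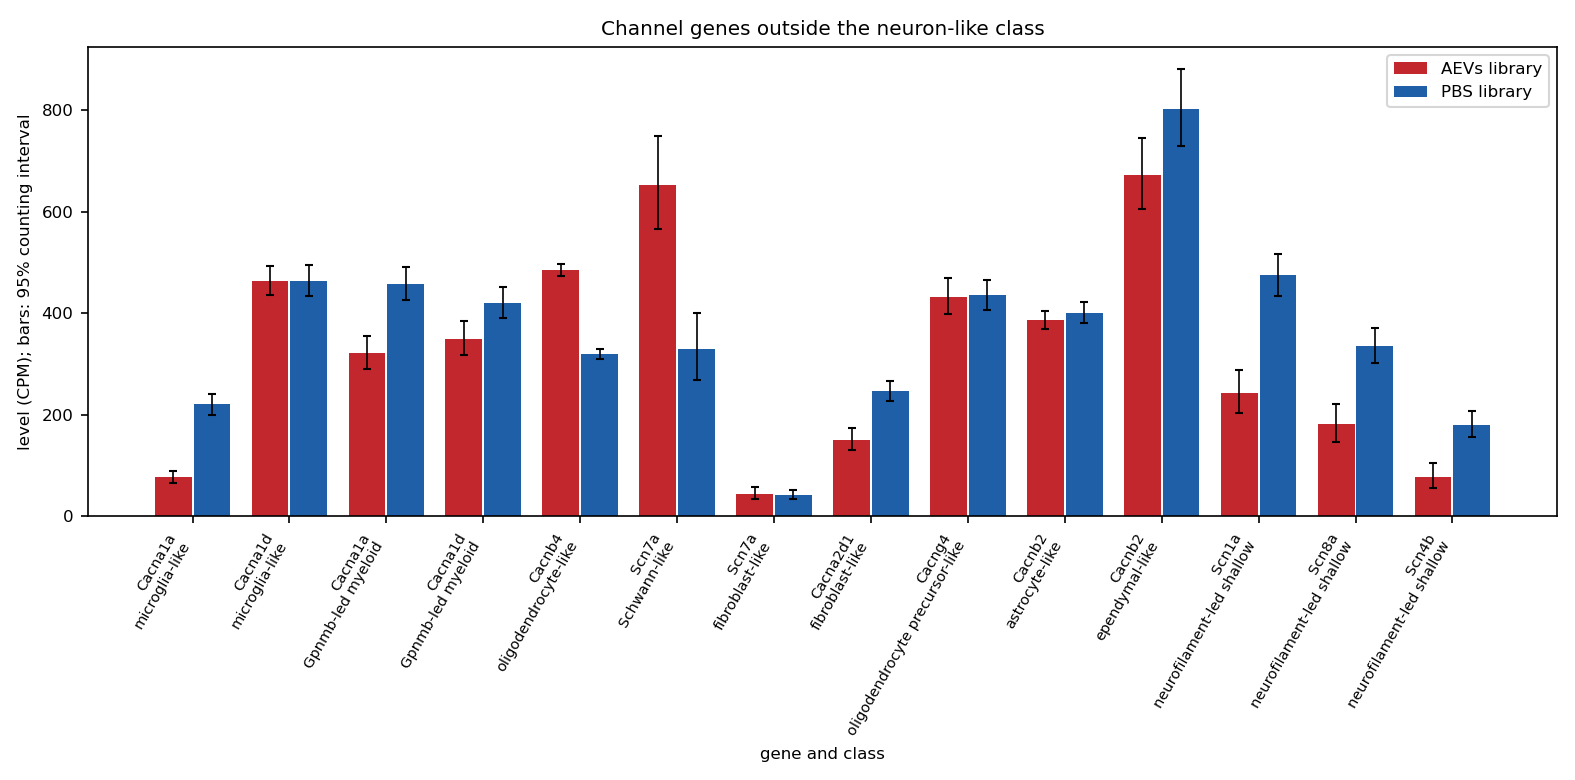
Levels (CPM, bars starting at 0) of 14 gene and class pairs outside the neuron-like class, with the AEVs library in red at the left of each pair and the PBS library in blue at the right; thin lines are 95% counting intervals. Cacna1a in microglia-like nuclei and Scn1a, Scn8a and Scn4b in the neurofilament-led class are lower in AEVs, Cacnb4 in oligodendrocyte-like and Scn7a in Schwann-like nuclei are higher, and Cacna1d in microglia-like nuclei and Cacng4 in oligodendrocyte precursor-like nuclei are level.

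The neurofilament-led class had lower channel gene levels in AEVs across several genes. It comprised 363 nuclei in AEVs and 742 in PBS, of low depth (median 909 UMIs in AEVs and 888 in PBS), and was led by Nefh, Nefm and Nefl. The larger of its 2 clusters, with 263 nuclei in AEVs and 546 in PBS, also had 10 of 10 oligodendrocyte markers raised over the median cluster. In the class as a whole the oligodendrocyte markers summed to 5699 CPM in AEVs and 5588 CPM in PBS, and the neuron markers to 5874 CPM in AEVs and 6559.6 CPM in PBS. Of 18 genes tested, 0 were called higher and 7 lower (background 9.70% higher and 14.1% lower), and the median log2 ratio was -0.54, against -0.035 over all genes tested. The 7 were Scn1a, Scn2a, Scn8a, Scn2b, Scn4b, Cacna1d and Cacna2d2.

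Scn1a had 130 UMIs in AEVs and 518 UMIs in PBS, or 242 CPM in AEVs and 474 CPM in PBS, a ratio of 0.511 (95% interval 0.418 to 0.620). Scn8a had 181 CPM in AEVs and 335 CPM in PBS, a ratio of 0.539 (0.427 to 0.677), and Scn4b 78.3 CPM in AEVs and 179 CPM in PBS, a ratio of 0.436 (0.305 to 0.611). Cacna2d2 had 16 UMIs in AEVs and 61 UMIs in PBS, a ratio of 0.534 (0.287 to 0.938), and Scn2b 12 UMIs in AEVs and 44 UMIs in PBS, a ratio of 0.555 (0.267 to 1.07) whose interval holds 1. Without the mitochondrial limit the log2 ratio of Scn2b was -0.43, against -0.85.

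Cacnb4 had a ratio of 0.999 (0.785 to 1.26) in that class, with an interval that holds 1. The class joins 2 clusters, and Scn1a was lower in AEVs in both, with 282 CPM in AEVs and 478 CPM in PBS in the cluster led by Crh and Nefh and 189.7 CPM in AEVs and 469 CPM in PBS in the cluster led by Nefh, Nefm and Prph. Beside this, the class had more nuclei in PBS, and the 8 sensory ganglion markers summed to 1748 CPM in AEVs and 792 CPM in PBS. Of these markers, Trpv1 and Mrgprd were at 0 in both libraries. Prph and Calca, also among them, were leading genes of the cluster led by Nefh, Nefm and Prph, next to the cholinergic genes Slc18a3 and Chat. The sum is thus not read as sensory ganglion material. The part of these differences in the channel ratios was not tested.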

How the data were processed

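Single-nucleus RNA was counted in 2 libraries, 1 per group, each from 3 pooled mice. The authors deposited raw counts, whole numbers of UMIs per gene and barcode, per the file headers; the submitters' processing notes name Seurat and mm10, and the sources used here give neither the aligner nor the strand of the reads. The kit captures 3' ends, per the labels' protocols.

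Barcodes with under 300 detected genes, under 500 UMIs or over 5% mitochondrial UMIs were left out. Scrublet scores of 0.15 or more marked doublets, since the automatic threshold had not worked: 1307 nuclei (7.71%) in AEVs and 920 (6.22%) in PBS. Clusters came from scanpy 1.11.5 and leidenalg 0.10.2 under Python 3.11.15 (2000 variable genes per library without the 40 channel genes, 30 components, 20 neighbours, resolution 1, neurons again at 2), 27 in all. A class needed 3 markers raised 2-fold over the median cluster. A Gpnmb-led myeloid class and a neurofilament-led class were kept apart by their leading genes, a choice made after these were seen, as were the limits that split neuron subtypes. Rebuilt classes may differ from the authors' own.

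Per library, UMIs of a class were added up and given as CPM. Levels have exact Poisson and ratios exact conditional binomial 95% intervals, for counting error only. Ratios were taken in classes with at least 100 nuclei per library for genes with at least 50 UMIs, so T or NK cell-like (31 nuclei in AEVs and 141 in PBS) and cholinergic nuclei have none. Values are given for channel genes past 1.5-fold whose level is at least 0.25 of that in their highest class, and for the highest and next class of each. The members and lists were chosen with earlier results of these data known. The partner symbol Nalf1 was not matched. Some genes that enter the counts are not reported by name here. Of the features, 32158 of 32285 were found in GENCODE M21; 19 of the 40 genes overlap another gene on the opposite strand and 0 on the same strand. Alternatives covered nucleus filters, doublets, clustering, scaling, thinning, the mix of neurons and the UMI minimum.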

Additional observations from a re-analysis of the deposited data

How the results depend on the processing

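No paired analysis was possible because each group is 1 library. In neuron-like nuclei the median log2 ratio of the channel genes was -0.065, and it was -0.17 under TMM scaling and -0.18 under median ratio scaling, which shift every gene there by -0.11; its sign was the same under each alternative. The count of genes at least 1.5-fold higher, 1 as reported, was 2 under the stricter nucleus filter, 2 with the channel genes among the variable genes, 2 with a minimum of 20 UMIs and 3 with a minimum of 1 UMI in each library. It was 0 when nuclei were thinned to 1000 UMIs, 0 under TMM scaling, 0 under median ratio scaling, 0 with the same mix of neuron subtypes, 0 with the same mix of neuron clusters (added after the data were seen) and 0 at 2-fold. The count at least 1.5-fold lower, 0 as reported, was 1 when thinned and 2 with a minimum of 1 UMI in each library; the cause was not tested. Of 239 alternative values of the 25 named ratios, 224 lay within the counting interval, 14 moved beyond it and 1 reversed, Scn3a in ependymal-like nuclei at -0.0018 under the stricter filter, and 193 were past 1.5-fold. The class with the highest level was the same in 412 of 476 comparisons over genes and alternatives. Depth limits some of the values outside neurons: Cacng8, Cacna2d4, Cacna1h and Scn2b there rest on 12 to 115 UMIs per library.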
